A study of Mus musculus with 4 samples.

Results

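The Hox genes were followed in mouse embryonic stem cells between d2 and d4 of a differentiation towards cardiogenic mesoderm. The 38 protein-coding Hox genes described here were taken by name from a table of 55487 gene IDs and lie in 4 clusters: 10 in HoxA on chromosome 6, from Hoxa2 to Hoxa13, 10 in HoxB on chromosome 11, 9 in HoxC on chromosome 15 and 9 in HoxD on chromosome 2. RNA was sequenced from ES-E14TG2a cells of WT genotype, an established embryonic stem cell line grown without feeders, with 2 libraries per day from separate differentiation experiments. The d2 cells were embryoid bodies kept for 48 h in a medium without serum. The d4 cells came from such bodies that were dissociated and then reaggregated for 40 h with VEGF at 5 ng/ml, BMP4 at 0.5 ng/ml and Activin A at 8 ng/ml. Day, added factors and reaggregation therefore changed together and cannot be told apart, and no gene was altered in either group.

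Hox genes encode homeodomain transcription factors that give cells their position along the head-to-tail axis. Genes that hold the same place in each cluster form a paralogue group, numbered from the 3′ end of the cluster, and in the embryo the 3′ genes are switched on earlier and reach further towards the head than the 5′ genes. In gastrulation the first Hox transcripts appear in the posterior primitive streak and its mesoderm, and genes at the 5′ end of HoxA are also active in the allantois.

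Hox RNA was nearly absent at d2 and present at d4. The 38 genes together held 23 and 30 counts in d2 replicates 1 and 2, and 852 and 1072 counts in d4 replicates 1 and 2. Scaled to library size with TMM factors, as CPM, this was 1.88 and 2.28 CPM at d2 and 72.1 and 63.1 CPM at d4. At d2, Hoxd13 alone held 15 of the 23 and 22 of the 30 counts, and the other 37 genes held 8 counts in each library. At d4, 29 and 28 of the 38 genes had at least 1 count, against 5 and 7 at d2. In bulk RNA, fewer cells that express a gene and less RNA per cell cannot be told apart.

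Of the 38 genes, 13 passed the filter on low counts (the pooled counts of either day had to exceed 0.5 CPM in a proportion test) and were tested with edgeR's quasi-likelihood test. At an adjusted p under 0.01, 11 rose: Hoxa10, Hoxa11, Hoxb1, Hoxb2, Hoxb3, Hoxb4, Hoxb5, Hoxb6, Hoxd1, Hoxd8 and Hoxd9. Across all 14932 genes tested, 12.9% rose and 11.3% fell. Hoxd13 passed the filter through its d2 counts and the others only through their d4 counts, so that these had to differ, and their share is a description only. No Hox gene fell by edgeR at this threshold, nor by DESeq2 or limma voom, and at an unadjusted p under 0.05 edgeR had 1, Hoxd13. The remaining 25 genes were too low for a test, and 6 of them, Hoxa3, Hoxa5, Hoxa6, Hoxb13, Hoxc12 and Hoxd12, had 0 counts in all 4 libraries. Of the 32 Hox genes with any count, both d4 libraries lay above both d2 libraries for 23 and below them for 2. Over all 26543 genes with any count, this held for 27.2% and 27.7%.

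**Figure D1:**
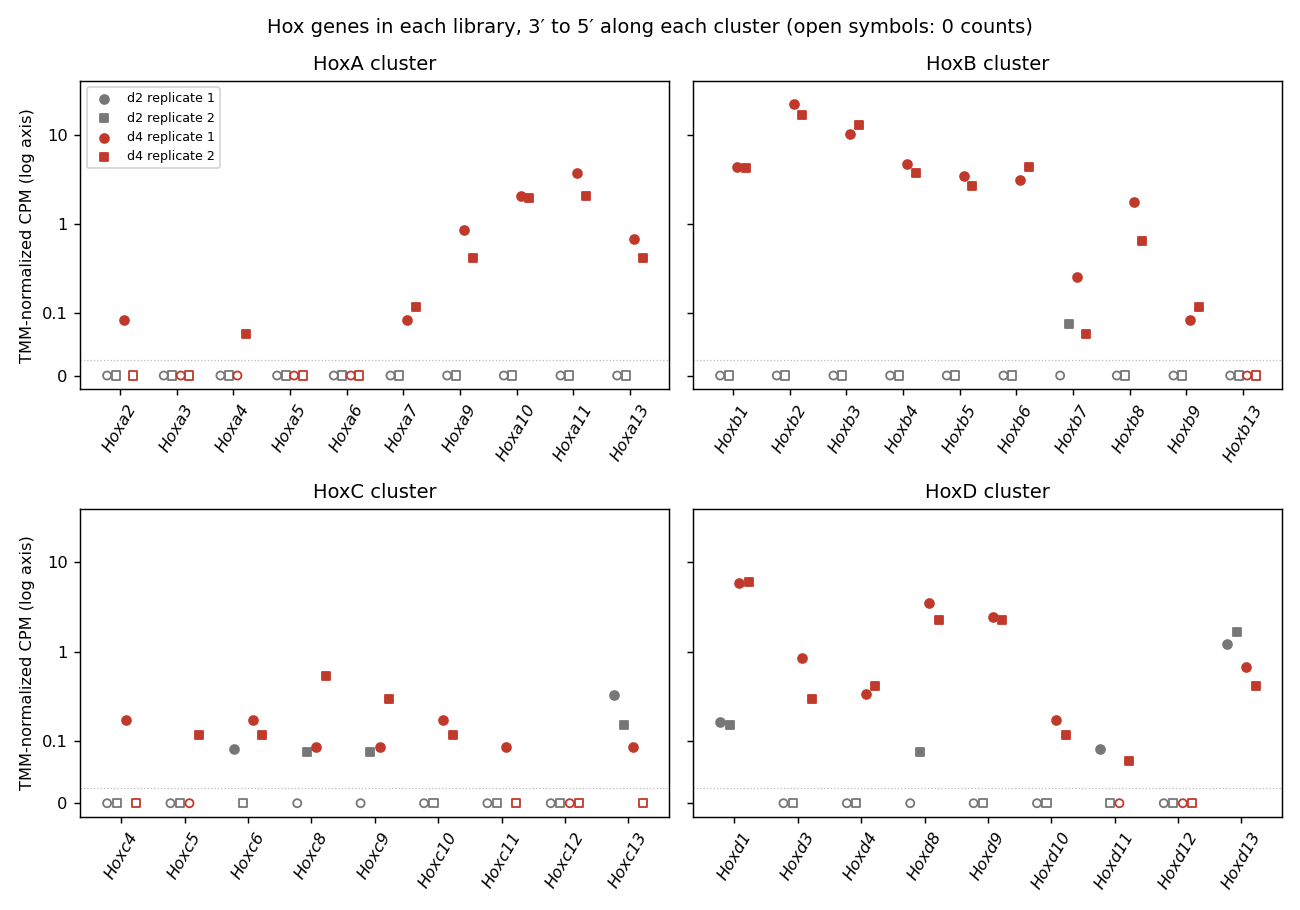
TMM-normalized CPM on a log axis for each Hox gene in the 2 libraries of d2 (grey) and d4 (red), by cluster and from 3′ to 5′; open symbols under the dotted line are libraries with 0 counts. The red symbols are highest at the 3′ side of HoxB, from Hoxa9 to Hoxa13 and at Hoxd1, Hoxd8 and Hoxd9, while Hoxd13 and Hoxc13 have their higher values at d2.

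The stretches upstream of 4 of these genes, from HoxB and HoxD only, are shown as examples. The genes are the most 3′ gene of HoxB, a 5′ gene of HoxB with a lower level and the leading gene of HoxD. The last is Hoxd13, which had its higher values at d2 but did not pass the test. Each stretch is the run of 250 bases before the RefSeq transcript start (GRCm38.p6), written 5′ to 3′ on the strand of the gene. They lie at chr11:96365508-96365757 for Hoxb1, chr11:96281655-96281904 for Hoxb8, chr2:74762730-74762979 for Hoxd1 and chr2:74667975-74668224 for Hoxd13, all on the plus strand. Capitals mark matches, on either strand, to 5 motifs: TTTATG for CDX factors, TGACAG for MEIS factors, TGATNNAT for PBX with HOX, AGATAA for GATA factors and TATAAA for the TATA box. Read on the other strand the TATA motif is TTTATA, which shares all but its last letter with the CDX motif.
Hoxb1: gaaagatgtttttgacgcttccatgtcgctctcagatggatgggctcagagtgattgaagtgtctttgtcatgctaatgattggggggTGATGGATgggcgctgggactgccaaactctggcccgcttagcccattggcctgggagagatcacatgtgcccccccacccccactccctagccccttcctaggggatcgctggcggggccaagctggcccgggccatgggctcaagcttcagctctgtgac
Hoxb8: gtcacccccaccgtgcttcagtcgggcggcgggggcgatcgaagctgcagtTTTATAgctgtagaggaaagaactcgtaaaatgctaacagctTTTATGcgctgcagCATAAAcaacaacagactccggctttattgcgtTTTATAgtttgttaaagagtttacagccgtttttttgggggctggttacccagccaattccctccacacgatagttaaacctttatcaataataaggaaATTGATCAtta
Hoxd1: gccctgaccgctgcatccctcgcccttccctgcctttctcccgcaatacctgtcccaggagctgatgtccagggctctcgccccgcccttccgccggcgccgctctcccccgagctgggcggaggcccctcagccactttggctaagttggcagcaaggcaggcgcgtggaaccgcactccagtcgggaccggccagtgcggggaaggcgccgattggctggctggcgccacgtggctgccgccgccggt
Hoxd13: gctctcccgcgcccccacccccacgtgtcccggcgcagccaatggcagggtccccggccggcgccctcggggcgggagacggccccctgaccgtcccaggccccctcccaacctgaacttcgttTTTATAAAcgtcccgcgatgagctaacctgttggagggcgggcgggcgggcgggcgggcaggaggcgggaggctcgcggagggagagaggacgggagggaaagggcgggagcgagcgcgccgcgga

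The Hoxb1 stretch held 1 PBX with HOX match, which began 162 bases before the start. The Hoxb8 stretch held 2 CDX matches at 157 and 143 bases before the start, 1 PBX with HOX match at 11 bases and 2 TATA matches. The Hoxd1 stretch held no match, and the Hoxd13 stretch held 2 overlapping TATA matches. Of the Hox genes, 22 had an entry in the promoter table, with 24 starts. Hoxb2, Hoxb3, Hoxb5 and Hoxb6, which rose, had no entry, so the values that follow leave them out. A CDX match was found in 5 of these 24 stretches, against 10.8% of all 32851 of the same length, a PBX with HOX match in 4 against 7.68%, a TATA match in 4 against 12.4%, a MEIS match in 2 against 15.9%, and a GATA match in 0 against 9.99%. These are matches of letters within 250 bases and were not tested. The median GC content of the 24 stretches was 58.6%, from 40.4% to 80.0%, and the median number of CpG was 12.5, against 52.4% and 6 over all stretches.

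HoxB held most of the d4 counts of the 38 genes. Its 10 genes had 589 of the 852 Hox counts in d4 replicate 1 and 766 of 1072 in d4 replicate 2, or 69.1% and 71.5%, and together 0 and 1 counts at d2. The 6 genes from Hoxb1 to Hoxb6 all rose, and all had 0 counts in both d2 libraries. Where a day had no count, the smallest fold that the depth allows is given, computed as if each of its libraries held 3 counts ("at least"). Intervals and floors cover counting error only.

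Hoxb1, which acts in the early streak and later patterns the hindbrain, had 0 and 0 counts at d2, against 51 and 72 at d4. This was 4.32 and 4.24 CPM, at least 18.1-fold higher at d4 (edgeR adjusted p = 0.00047). Its d4 libraries were nearly equal after scaling and far from the d2 libraries.

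Hoxb2, a hindbrain patterning gene, was the highest of the 38 Hox genes at d4. It had 258 and 280 counts at d4 and none at d2, or 21.8 and 16.5 CPM, at least 81.0-fold higher (edgeR adjusted p = 0.00014). It held 28.0% of the d4 counts of the 38 genes.

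Hoxb3, which patterns the hindbrain and the pharyngeal region, followed with 121 and 218 counts at d4, or 10.2 and 12.8 CPM, at least 48.8-fold higher (edgeR adjusted p = 0.00019). Here d4 replicate 2 was the higher library, while for Hoxb2 it was replicate 1. Neither gene overlapped between days.

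Hoxb4, known for its effect on blood stem cells when supplied in excess, had 56 and 64 counts at d4, or 4.74 and 3.77 CPM, at least 18.0-fold higher (edgeR adjusted p = 0.00055). Hoxb5 had 41 and 45 counts, or 3.47 and 2.65 CPM, at least 12.9-fold higher (edgeR adjusted p = 0.00093). Hoxb6, which is active in lateral and posterior mesoderm, had 37 and 73 counts, or 3.13 and 4.29 CPM, at least 15.7-fold higher (edgeR adjusted p = 0.00074). The 3 genes were close to each other in CPM and stood apart from 0 in both d4 libraries.

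The level fell off at the 5′ side of HoxB, but not in order. Hoxb7 had 0 and 1 counts at d2, against 3 and 1 at d4, a ratio of 3.53 with an exact 95% counting interval of 0.349 to 174. Hoxb8, on the 5′ side of Hoxb7, had 0 and 0 counts at d2, against 21 and 11 at d4, or 1.78 and 0.647 CPM, at least 5.12-fold higher, and did not pass (edgeR adjusted p = 0.013). In proportion, its d4 libraries differed more from each other than those of Hoxb1 to Hoxb6. Hoxb9 had 1 and 2 counts at d4 and 0 at d2, and Hoxb13, which lies apart from the rest of the cluster, had 0 throughout.

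In HoxA, the 10 genes described here, from Hoxa2 to Hoxa13, held 88 and 85 counts at d4 and 0 in both d2 libraries. Among these 10, nearly all counts came from Hoxa9 to Hoxa13, and nothing is said of the cluster on the 3′ side of Hoxa2. Of the genes Hoxa2 to Hoxa7, Hoxa2 had 1 and 0 counts at d4, Hoxa4 had 0 and 1, Hoxa7 had 1 and 2, and Hoxa3, Hoxa5 and Hoxa6 had none. These 6 genes were at or under the floor in every library.

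Hoxa9, a regulator of blood progenitors, had 10 and 7 counts at d4, or 0.846 and 0.412 CPM, at least 2.66-fold higher, and was under the filter. Hoxa10, its neighbour on the 5′ side, had 24 and 33 counts, or 2.03 and 1.94 CPM, at least 8.40-fold higher (edgeR adjusted p = 0.0015). The 2 d4 libraries of Hoxa10 were nearly equal.

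Hoxa11, which acts in limb, kidney and uterus, was the highest of these 10 genes, with 44 and 35 counts at d4, or 3.72 and 2.06 CPM, at least 12.2-fold higher (edgeR adjusted p = 0.0019). It held 45.7% of their counts at d4. Hoxa13, a gene of the limb tip, hindgut and allantois, had 8 and 7 counts, or 0.677 and 0.412 CPM, at least 2.30-fold higher, and was under the filter.

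HoxC was nearly silent on both days. Its 9 genes held 5 and 4 counts at d2, against 10 and 20 at d4, and none reached 3 counts in both libraries of a day. Hoxc8 had 0 and 1 counts at d2, against 1 and 9 at d4, a ratio of 8.81 with an exact 95% counting interval of 1.25 to 383, and 9 of its 10 d4 counts came from replicate 2. Hoxc9 had 0 and 1 against 1 and 5 counts, a ratio of 5.29 (exact 95% counting interval 0.642 to 243). The d4 libraries of these genes differed from each other more than replicate 1 differed from d2.

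Hoxc6 had 1 and 0 counts at d2, against 2 and 2 at d4, a ratio of 3.53 (exact 95% counting interval 0.349 to 174). Hoxc4 had 2 and 0 counts at d4, Hoxc5 had 0 and 2, Hoxc10 had 2 and 2 and Hoxc11 had 1 and 0, all with none at d2. Hoxc13, a gene of hair and nail, went the other way with 4 and 2 counts at d2, against 1 and 0 at d4, a d4 over d2 ratio of 0.147 (exact 95% counting interval 0.00319 to 1.21). None of these differences could be detected at this depth.

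In HoxD, the 3 genes that rose were Hoxd1 and the neighbours Hoxd8 and Hoxd9. Between them lie Hoxd3 and Hoxd4, whose counts are uncertain, so a gap in activity is not shown. The 9 genes of HoxD held 18 and 25 counts at d2, mostly Hoxd13, and 165 and 201 at d4. Hoxd1, at the 3′ end, had 2 and 2 counts at d2, against 70 and 103 at d4, or 0.164 and 0.152 CPM against 5.92 and 6.06 CPM, and rose by a log2 fold change of 5.17 ± 0.43 (SE, edgeR adjusted p = 0.00019). Of the 38 genes it was the only 1 past the test with more than 1 count at d2, and its replicates were nearly equal on each day.

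Hoxd3 had 10 and 5 counts and Hoxd4 had 4 and 7 counts at d4, with none at d2, at least 2.41-fold and at least 1.59-fold higher, and both were under the filter. Their counts are uncertain, since 62.3% of the Hoxd3 and 52.3% of the Hoxd4 exon bases are shared with each other or with the read-through gene Gm28230 on the same strand, and reads in shared bases were not counted.

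Hoxd8 had 0 and 1 counts at d2, against 42 and 38 at d4, or 3.55 and 2.24 CPM at d4, a ratio of 70.5 with an exact 95% counting interval of 12.3 to 2820 (edgeR adjusted p = 0.0012). Hoxd9, beside it, had 0 and 0 counts at d2, against 29 and 38 at d4, or 2.45 and 2.24 CPM, at least 9.91-fold higher (edgeR adjusted p = 0.0012). Both stood far apart from their d2 libraries. The next genes on the 5′ side had few counts on either day: Hoxd10 had 2 and 2 counts at d4 and none at d2, Hoxd11 had 1 and 0 against 0 and 1, and Hoxd12 had none.

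Hoxd13, the most 5′ gene of HoxD and a gene of the digits and genitalia, was the 1 of the 38 genes with at least 3 counts in both d2 libraries. It had 15 and 22 counts at d2, against 8 and 7 at d4, or 1.23 and 1.67 CPM against 0.677 and 0.412 CPM, a log2 fold change of -1.44 ± 0.47 that did not pass (SE, edgeR adjusted p = 0.049). Both d2 libraries were above both d4 libraries.

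**Figure D2:**
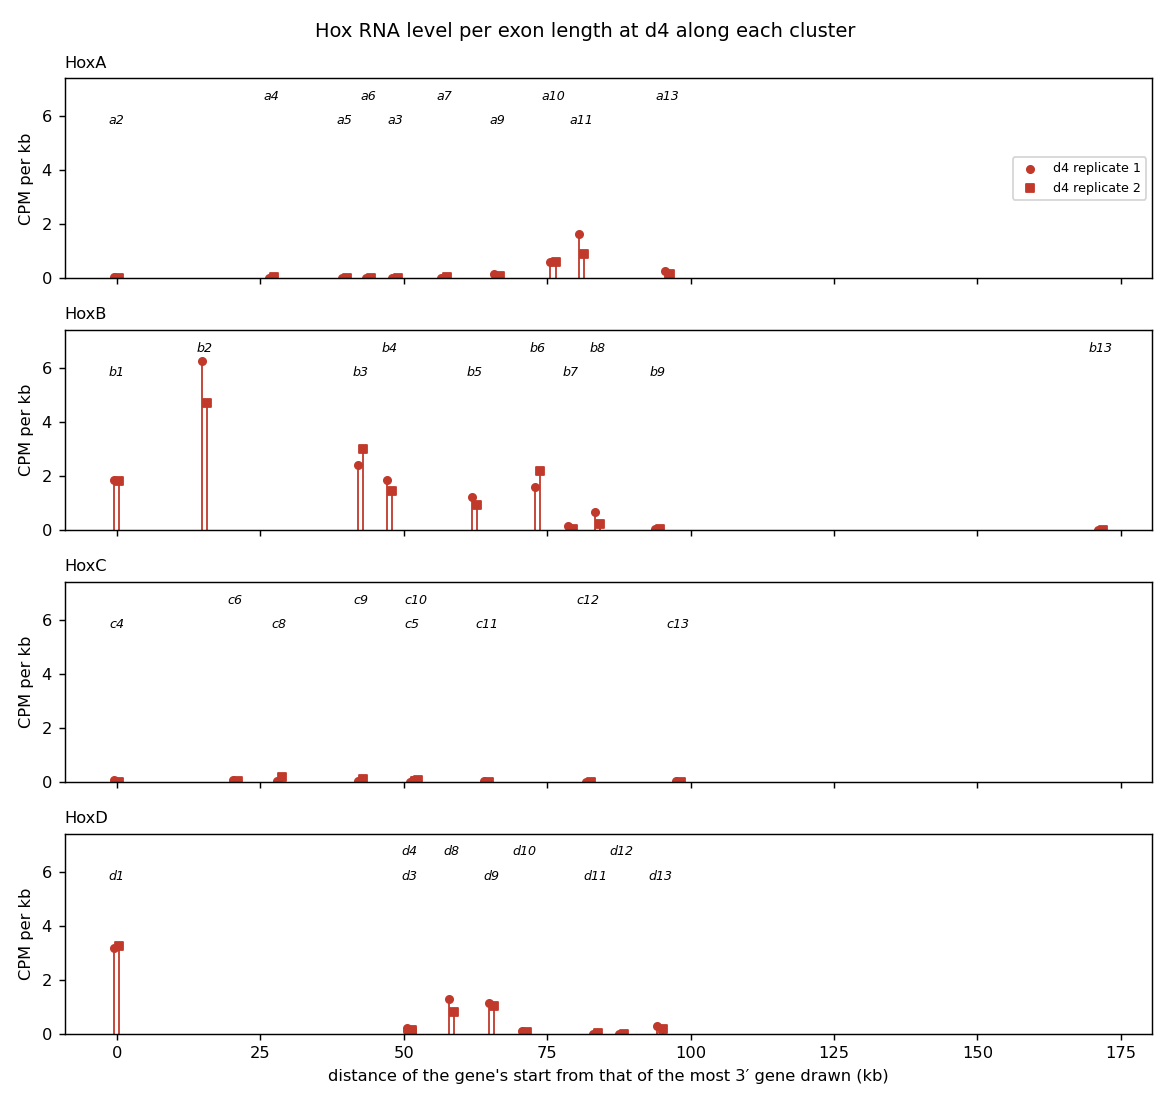
CPM per kb of exon in the 2 d4 libraries against the distance in kb of each gene's outermost annotated start from that of the most 3′ gene drawn, 1 panel per cluster with gene names shortened. Hoxb2 reaches 4.72 to 6.26 CPM per kb and Hoxd1 3.18 to 3.25, the HoxA genes drawn have their highest values at Hoxa11, and HoxC stays near 0.

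To compare the 38 genes, the CPM values were divided by exon length. On this scale the order of levels at d4 began with Hoxb2 at 5.49 CPM per kb, Hoxd1 at 3.22 and Hoxb3 at 2.71, and the 2 libraries of each of these 3 did not overlap with those of the next. After them came Hoxb6 at 1.89, Hoxb1 at 1.84, Hoxb4 at 1.66, Hoxa11 at 1.26, Hoxb5 at 1.10, Hoxd9 at 1.10 and Hoxd8 at 1.06 CPM per kb, and each neighbouring pair among these overlapped. Hoxa10 at 0.607 CPM per kb came next, and its libraries lay below those of Hoxd8. From Hoxb8 at 0.460 down, neighbours overlapped as far as Hoxc6. The places of Hoxd3 and Hoxd4 among these are uncertain, since exon length includes the shared bases where reads were not counted.

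As a description across genes, which are not independent replicates, the paralogue group number and the d4 level per kb had a Spearman correlation of -0.85 over the 10 HoxB genes. In HoxC and HoxD, with 9 genes each, it was -0.40 and -0.53. The HoxD value is uncertain, since the levels of Hoxd3 and Hoxd4 are divided by full exon length. Reads in the 62.3% and 52.3% of their exon bases shared with other genes were not counted. No HoxC gene reached 3 counts in both libraries of a day. Over the 10 HoxA genes described, from Hoxa2 to Hoxa13, the correlation was 0.78, and nothing is said of the 3′ side of Hoxa2. All points of a cluster come from the same libraries. Of the d4 counts of all 38 genes, the 11 genes of groups 1 to 4 held 68.8%, the 11 of groups 5 to 8 held 17.2% and the 16 of groups 9 to 13 held 14.0%.

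Among the genes described, those of 1 paralogue group often differed between clusters in counts, which are not scaled by exon length here. In group 2, Hoxb2 had 538 counts at d4 and Hoxa2 had 1. In group 3, Hoxb3 had 339 counts, Hoxd3 had 15 and Hoxa3 had 0. Reads in the 62.3% of Hoxd3 exon bases shared with other genes were not counted. In group 9, Hoxd9 had 67 counts, Hoxa9 had 17, Hoxc9 had 6 and Hoxb9 had 3. Group 7 was low in both clusters that have it, with 3 counts for Hoxa7 and 4 for Hoxb7, and group 12 had 0 counts.

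**Figure D3:**
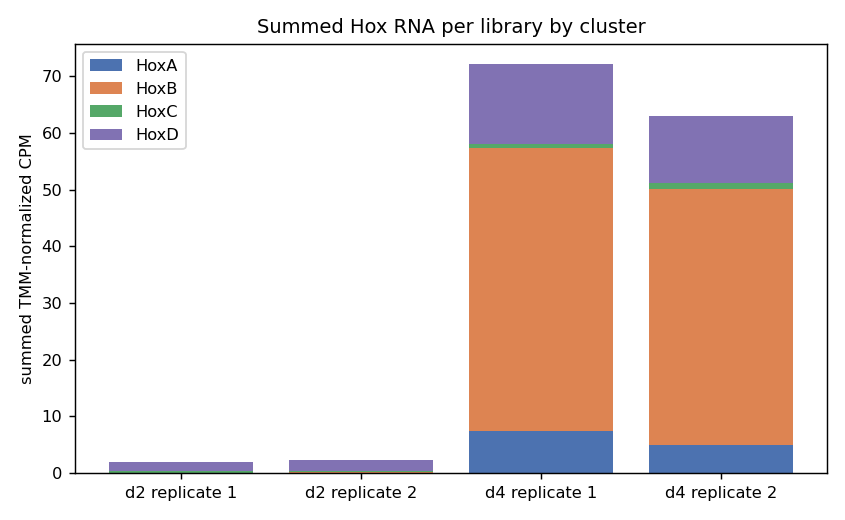
Summed TMM-normalized CPM of the 38 Hox genes in each library, with the part of each cluster stacked. The d2 bars reach 1.88 and 2.28 CPM and the d4 bars 72.1 and 63.1 CPM, and HoxB fills most of each d4 bar.

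The clusters also hold noncoding RNAs, several of which are transcribed antisense to Hox genes. Of 16 listed ones, 1 passed the filter. Hoxb3os, antisense to Hoxb3 and Hoxb2, had 0 and 0 counts at d2, against 182 and 203 at d4, or 15.4 and 11.9 CPM, at least 57.8-fold higher (edgeR adjusted p = 0.00018). Its exons face 2250 bases of Hoxb3 exon and 953 of Hoxb2, and counting was stranded.

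Hotairm1 at the 3′ side of HoxA had 14 and 3 counts at d4, Hoxa11os had 8 and 3, Hoxd3os1 had 7 and 3 and Hoxaas2 had 2 and 6, all with none at d2 and under the filter. Hotair, in HoxC, had 0 counts throughout and Hottip, at the 5′ end of HoxA, had 1. Mir196a-1 had 1 and 0 counts at d2, against 2 and 0 at d4, Halr1 had 0 and 1 at d2 and none at d4, and Hoxaas3, Hoxb5os, Mir10a, Mir10b, Mir196a-2, Mir196b and Mir615 had none. RNA-seq libraries of this kind do not measure mature miRNAs. Of the 41 genes other than Hox genes annotated within the 4 spans, 3 were tested and 2 rose, against 12.9% of all genes tested. Both passed the filter only through their d4 counts. The second was Haglr, chosen here after its values were seen, which lies between Hoxd1 and Hoxd3 on the opposite strand. It had 1 and 0 counts at d2, against 58 and 73 at d4, a ratio of 115 with an exact 95% counting interval of 20.4 to 4595 (edgeR adjusted p = 0.0004).

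Of 21 listed genes that flank the clusters, 18 were tested, 5 rose and 1 fell, with a median log2 fold change of 0.18 against -0.03 over all genes tested. Across all genes tested, 12.9% rose and 11.3% fell. Evx1, a homeobox gene of the primitive streak at the 5′ end of HoxA, had 0 and 0 counts at d2, against 151 and 165 at d4, at least 47.5-fold higher (edgeR adjusted p = 0.00022). Its counterpart Evx2, beside Hoxd13, had 0 counts throughout. Skap1, beside HoxB, had 1 and 10 counts at d2, against 634 and 691 at d4 (log2 fold change 6.75 ± 0.59 SE, edgeR adjusted p = 0.00024). Near HoxC, Nfe2, a blood transcription factor, rose by 6.04 ± 0.38 on the log2 scale (SE, edgeR adjusted p = 9.0e-05) and the DNA repair gene Smug1 by 1.14 ± 0.22 (SE, edgeR adjusted p = 0.0067). Cbx1, near HoxB, changed by -1.12 ± 0.20 (SE, edgeR adjusted p = 0.0044). With DESeq2 size factors, upper-quartile factors or thinning to equal depth, 4 of the list instead of 5 rose. With upper-quartile factors, no filter or DESeq2, 2 instead of 1 fell. At an adjusted p under 0.05, 6 rose and 3 fell, and with the replicate block 6 rose and 4 fell.

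HOX proteins bind DNA with partners of the TALE class. Of the 8 genes of this class described here, all were tested, 5 rose and 1 fell, with a median log2 fold change of 1.49 against -0.03 over all genes. Across all genes tested, 12.9% rose and 11.3% fell. Meis1 went from 7 and 3 counts to 63 and 79 (log2 fold change 3.62 ± 0.46), Meis2 from 15 and 22 to 107 and 206 (2.86 ± 0.34), and Pknox2 from 13 and 11 to 209 and 230 (4.03 ± 0.33). Pbx2 rose by 1.59 ± 0.19 and Meis3 by 1.39 ± 0.29, and Pbx4 changed by -2.55 ± 0.51 (all SE). Pbx3 had a log2 fold change of 0.26 ± 0.21 and Pknox1 of -0.26 ± 0.20 (SE), and these did not pass. The call of Pbx4 was lost with DESeq2 size factors and with limma voom, and 4 genes instead of 5 rose under both of these, with upper-quartile factors and after thinning to equal depth.

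Among the CDX and other ParaHox genes, regulators and sister genes of the Hox clusters, Cdx2 was the 1 of 6 that passed the filter. It had 0 and 2 counts at d2, against 106 and 118 at d4, a ratio of 98.7 with an exact 95% counting interval of 27.0 to 820 (edgeR adjusted p = 0.00038). Cdx4 had 0 and 0 against 6 and 2 counts, at least 1.32-fold higher. Cdx1 and Gsx2 had 0 counts throughout, Gsx1 had 3 and 5 counts at d2 and none at d4, and Pdx1 had 4 and 1 against 1 and 1.

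Retinoic acid induces 3′ Hox genes in many embryonic cells. Of 14 listed genes of its pathway, 12 were tested, 4 rose and 3 fell, against 12.9% and 11.3% of all genes tested. Cyp26a1, which degrades retinoic acid, had 2 and 2 counts at d2, against 1814 and 1965 at d4 (log2 fold change 9.66 ± 0.37 SE, edgeR adjusted p = 4.0e-05). The synthesis genes Aldh1a2 and Aldh1a3 rose by 2.77 ± 0.42 and 2.65 ± 0.55 (SE). The receptor gene Rarb had 0 and 1 against 23 and 19 counts, a ratio of 37.0 (exact 95% counting interval 6.29 to 1497), and rose as well. Crabp2, a binding protein, changed by -4.35 ± 0.24, the vitamin A uptake gene Stra6 by -2.60 ± 0.49 and the receptor gene Rarg by -1.69 ± 0.26 (SE). Cyp26b1 at 2.81 ± 0.65, Rara at 0.79 ± 0.30, Crabp1 at 0.75 ± 0.26, Rdh10 at 0.37 ± 0.26 and Dhrs3 at 0.30 ± 0.45 did not pass (log2 fold change and SE). Aldh1a1 had 1 and 2 counts and Cyp26c1 3 and 3 at d4, with none at d2. With DESeq2 size factors, DESeq2 or limma voom, 3 genes of the list instead of 4 rose. With no filter or at an adjusted p under 0.05 this was 5, and with the replicate block 7.

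Of 8 listed signals that act on posterior cells, 6 were tested, 3 rose and 2 fell, against 12.9% and 11.3% of all genes tested. Wnt3, needed for the primitive streak, rose by 5.92 ± 0.41 on the log2 scale, Wnt5a by 4.42 ± 0.23 and Fgf8 by 2.66 ± 0.45 (SE). Fgf4, a growth factor of the epiblast, changed by -7.04 ± 0.30 (SE), and Wnt8a went from 50 and 56 counts to 0 and 2. Gdf11, which promotes 5′ Hox genes in the trunk, had a log2 fold change of -0.52 ± 0.27 (SE) and did not pass. Wnt3a had 1 and 1 counts at d2, against 1 and 3 at d4, and Mstn had none.

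**Figure D4:**
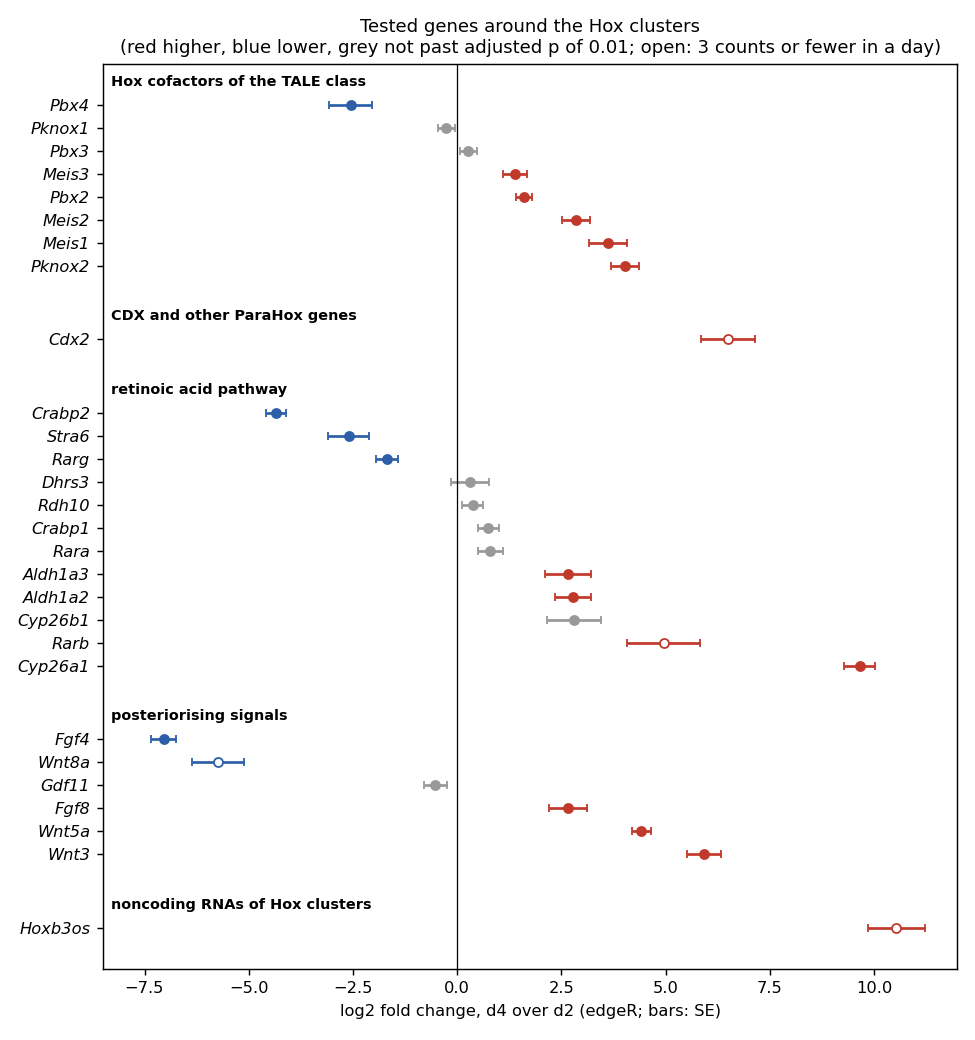
Log2 fold change of d4 over d2 with its SE for tested genes of the TALE, ParaHox, retinoic acid, posteriorising signal and noncoding RNA lists, coloured by the edgeR call at an adjusted p of 0.01; open symbols have 3 counts or fewer in a day, and their fitted values depend on the prior count. The genes spread to both sides of 0 in the TALE, retinoic acid and signal lists, from -7.04 for Fgf4 to 9.66 for Cyp26a1 among the filled symbols.

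Hox clusters are kept silent by Polycomb complexes and opened by Trithorax and demethylase genes. All 24 listed chromatin regulators were tested, 2 rose and 3 fell, with a median log2 fold change of -0.24 against -0.03 over all genes. Across all genes tested, 12.9% rose and 11.3% fell, so these counts are a description only. Cbx8, a Polycomb subunit, rose by 2.65 ± 0.35 and Kdm6b, an H3K27 demethylase, by 2.03 ± 0.39 (SE). The genes that fell encode subunits or partners of Polycomb, with log2 fold changes for Cbx7 of -3.45 ± 0.25, Phc1 of -2.98 ± 0.25 and Jarid2 of -1.82 ± 0.19 (SE). The other 19 did not pass. With DESeq2 size factors 1 instead of 2 rose. With no filter or at an adjusted p under 0.05, 3 rose, and with the replicate block 4 rose and 6 fell.

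Markers of several cell types moved between the days together with the Hox genes, and their part in the Hox values was not tested. Across all genes tested, 12.9% rose and 11.3% fell. Of 10 pluripotent cell markers 8 fell, with a summed level of 1202 to 1507 CPM at d2 and 36.6 to 37.1 CPM at d4, and Utf1 was at 0 at d4. All 10 endothelial and all 10 primitive blood markers rose, from 11.8 to 14.1 CPM to 1020 to 1318 CPM and from 4.09 to 4.18 CPM to 450 to 625 CPM. Of 10 allantois and extraembryonic mesoderm markers 7 rose (7.14 to 9.32 CPM against 1097 to 1296 CPM), of 10 heart field markers 7 rose (5.39 to 5.97 CPM against 308 to 315 CPM), and of 10 primitive streak and caudal mesoderm markers 6 rose and 1 fell (26.9 to 28.4 CPM against 448 to 488 CPM), with Msgn1 at 0 on both days. The hindbrain and spinal neural markers summed to 6.99 to 8.01 CPM at d2 and 7.24 to 9.23 CPM at d4, 2 rose and 2 fell, and Olig2 and Neurog2 were at 0 at d4. The labels call the cells of both days embryonic stem cells, and Pou5f1, which defines them, was at 1000 and 721 CPM at d2 and at 4.40 and 3.82 CPM at d4.

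The calls rest on 2 libraries per day, and an exact permutation test of 2 against 2 cannot go below a two-sided p of 0.333. Without d2 replicate 1 or without d2 replicate 2, edgeR called 0 of the 13 Hox genes and 0 of all genes, although 13 and 12 Hox genes had an unadjusted p under 0.05. DESeq2 called 8 Hox genes without the first and 7 without the second.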

How the data were processed

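Paired reads of 75 bp from stranded libraries were sequenced by the authors, who deposited raw counts per gene, unfiltered and not normalized. Per the labels and the study's methods, FastQC, cutadapt, STAR and featureCounts were used on mm10/GRCm38, with strand and without reads mapping to several places or overlapping several genes. Total counts were 11397439 to 16851485 per library, and 3 counts were 0.177 to 0.254 CPM. Symbols and positions came from a GENCODE annotation of GRCm38 (55141 of 55487 IDs), promoters from RefSeq.

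A gene was tested if the pooled counts of either day exceeded 0.5 CPM (proportion test, one-sided, adjusted p under 0.05). edgeR 4.0.16 in R 4.3.3 (TMM, glmQLFit, glmQLFTest, day only, two-sided) gave Benjamini-Hochberg adjusted p-values over 14932 genes, called under 0.01. It was tested on simulated counts for d4 against d2 over 14932 genes and recovered 5.97%, 74.6% and 95.5% of changes of 1, 2 and 3 on the log2 scale. A day without counts gives a bound in place of a fold, and 1 to 3 counts a ratio with an exact binomial interval. Alternatives were other scalings, filters, thresholds and depths, DESeq2 1.42.0, limma 3.58.1 voom, a replicate block and leaving out libraries. The members and lists were chosen with earlier results of these data known. All 38 Hox genes are named. Of each list other than the cell type markers, which are given as sums and counts, every gene is named where at most 12 were tested, otherwise up to 4 per direction with the smallest adjusted p, except 1 listed gene that is not reported here.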

Additional observations from a re-analysis of the deposited data

How the results depend on the processing

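The 11 Hox genes that rose were called under every other scaling, filter, threshold, depth and test that kept all 4 libraries. Hoxb8 was added with upper-quartile factors, DESeq2, limma voom, the replicate block or an adjusted p under 0.05 (12 in each), and Hoxa9, Hoxa13, Hoxb8 and Hoxd3 with no filter (15). At 0.05, 1 Hox gene, Hoxd13, was lower. Over all genes, 1933 higher and 1694 lower became 2901 and 2873 with no filter, and 2991 and 2679 at 0.05. The replicate numbers are shared between days, but there are only 2 pairs and no label ties them. The deviations of same-numbered libraries correlated at 0.48, and with the replicate block 3478 genes were higher and 3496 lower.

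Leaving out 1 library in turn gave 0 to 2269 higher and 0 to 2475 lower genes, and 0 to 12 higher and 0 to 0 lower Hox genes. edgeR gave the 0 without either d2 library (lowest adjusted p 0.0181 and 0.0172; an unadjusted p under 0.05 was seen for 6343 and 6012 genes). DESeq2, added after seeing this, gave 1049 and 985 higher and 730 and 722 lower genes without d2 replicates 1 and 2, with 8 and 7 Hox genes higher, and 1248 and 1268 higher without d4 replicates 1 and 2. The cause was not tested. Of the Hox log2 fold changes, 204 of the refitted values kept direction and side of the threshold, 9 newly passed and 32 no longer passed, all 32 with a library left out. For the list counts these numbers were 441, 13 and 78. Depth limits the 25 Hox genes under the filter, where differences of a few counts cannot be told from counting error.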
